A study of Homo sapiens with 4 samples.

Results

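A group of 10 human genes of differing function was examined in SW480 and SW620 colorectal cancer cells after knockdown of SHMT2. The genes were TSEN15, RWDD1, ISOC1, CERS6, ICK, NAA50, MAP4K5, SIKE1, CNOT6 and ZFP91, out of 26364 rows of the deposited table of read counts. They were chosen by the fall of their counts in knockdown against control cells of both lines, among genes that the paper does not discuss. The study's supplementary list of downregulated genes does name NAA50, MAP4K5, SIKE1, CNOT6 and ZFP91. The fall was therefore used in choosing them, and it is given below as a description with no test. The rule named no threshold. Ranked by the smaller of the 2 falls, the 10 genes took places from 13 (TSEN15) to 239 (NAA50) among 14024 tested genes. Above place 239 stood 229 genes outside the group, SHMT2 and UHRF1 among them. Some of the 229 had few counts, such as GJB7 and HNMT with 2 and 0 in control and knockdown SW480 cells.

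The 4 libraries were 1 of SHMT2 knockdown and 1 of control cells for SW480, a line from a primary colon tumor, and the same pair for SW620, a line from a metastasis of the same patient. In the study's system, doxycycline (DOX) induced an shRNA against SHMT2 from a TET-ON pLKO vector that had been integrated into puromycin-selected cells. The study's text compares against control shRNA cells, while the labels name them only as control, and whether they received DOX is not given in the sources used here. The study used more than 1 hairpin and prints the sequence of 1, and which of them was sequenced is not given either. No arm had a replicate within a line, so an error printed for 1 line reflects read counting alone. Tests over both lines have 1 residual degree of freedom, and their errors draw on the spread of all tested genes. An SE or p-value from them therefore does not measure the replicate spread of a single gene.

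SHMT2 is the mitochondrial enzyme that turns serine into glycine and passes a carbon unit to folate. A short hairpin RNA is cut by DICER1 into a duplex, of which the guide strand is loaded into an Argonaute protein and pairs with its target. Full pairing leads to cleavage of the target. Pairing of the seed, the bases near the 5′ end of the guide, with a 3′ UTR can lower other transcripts too, as a microRNA does. The 10 genes come from different pathways.

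The target of the printed hairpin is shown first, because the sites in the 10 genes are matches to parts of it. It lies in exon 3 of 12 of SHMT2, in the coding sequence (GRCh38, GENCODE 29, transcript ENST00000328923.7, chr12:57231530-57231550, plus strand). In the target and in its complement, the guide, capitals mark the bases that pair with bases 2 to 8 of the guide or are those bases.
Target: acaagtactcggaGGGTTATc
Guide: gATAACCCtccgagtacttgt

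In the 3′ UTRs of the 10 genes, stretches of up to 9 bases were identical to the target. The stretches around GAGGGTT, the complement of guide bases 4 to 10, are printed below with flanking bases, and capitals mark the whole contiguous match. Bases of the guide were counted from the 5′ end of the strand as printed, and the 5′ end of the processed guide was not measured.
RWDD1, chr6:116593159-116593167, plus strand, 9 bases: gctatgctcaGAGGGTTATgattttcctt
ICK, chr6:53004711-53004719, minus strand, 9 bases: ctatgtgataGAGGGTTATttactcagtg
NAA50, chr3:113717813-113717821, minus strand, 9 bases: ttttctaaatGAGGGTTATaaagcactgc
ZFP91, chr11:58617965-58617973, plus strand, 9 bases: ctcttaaagtGAGGGTTATtctcatactc
ZFP91, chr11:58618891-58618898, plus strand, 8 bases: gagagggtgaGGAGGGTTgttcagaatct
CERS6, chr2:168770357-168770364, plus strand, 8 bases: tgagctagttGAGGGTTAaccttgtaggt
CERS6, chr2:168769952-168769958, plus strand, 7 bases: tgtggacaaaaGAGGGTTtcctcactcct
MAP4K5, chr14:50419490-50419497, minus strand, 8 bases: ttttagcaaaGGAGGGTTgcagagcagct
ISOC1, chr5:129113955-129113961, plus strand, 7 bases: aatacttgttaGAGGGTTttgaaatgttt
SIKE1, chr1:114772185-114772191, minus strand, 7 bases: gaggaagtgcaGAGGGTTtttttacatat
CNOT6, chr5:180575972-180575978, plus strand, 7 bases: ttttttcctttGAGGGTTttttgtttttt
TSEN15, chr1:184072950-184072956, plus strand, 7 bases: acgtacatagtGAGGGTTgacttccccat

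These stretches lay in the longest annotated 3′ UTR of 9 of the genes. That of TSEN15 lay in 11 of its 17 annotated 3′ UTRs and not in the longest one. GAGGGTT was in 1 of 8 annotated 3′ UTRs of NAA50, and in 1 of 2 of MAP4K5 and of SIKE1. In RWDD1, ISOC1, CERS6, ICK, CNOT6 and ZFP91 it was in every annotated one. Which of these 3′ UTRs the cells used was not measured. RWDD1, ICK, NAA50 and ZFP91 had the longest match, which spans guide bases 2 to 10 and so also contains GGGTTAT, the complement of the canonical seed. MAP4K5, SIKE1 and CNOT6 carried this 7-base site at a separate place, in only the longest of their 2, 2 and 3 annotated 3′ UTRs, as printed next.
MAP4K5, chr14:50419907-50419913, minus strand: ttaactattatGGGTTATattgcaaatga
SIKE1, chr1:114769537-114769543, minus strand: atttcattgttGGGTTATacaacatattg
CNOT6, chr5:180578369-180578375, plus strand: acattgtgttgGGGTTATaataattcatt

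All 10 genes were lower in SHMT2 knockdown cells of both lines, and their median log2 fold change was -0.75 (SW480) or -1.10 (SW620). Over all tested genes the medians were 0.00 and 0.00. In the edgeR fit over both lines each of the 10 passed an adjusted p of 0.05 as lower, against 1.17% of all tested genes, which follows from how they were chosen. These calls depended on the model. The DESeq2 Wald test called 21 of all tested genes lower, at least 18 of them outside the group, so most of the 10 were not called. With the cell line left out of the model, 0 genes were called. SHMT2 itself, which checks the labels, had 11.2% of its control level left in SW480 and 6.92% in SW620. Values of genes below are counts and TMM-scaled CPM, the counts scaled to a common library size, and log2 fold changes use a prior count of 2. In bulk RNA, a change in the mix of cells and a change in RNA per cell cannot be told apart.

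Among the genes of RNA and protein processing, TSEN15 encodes a structural subunit of the endonuclease that removes introns from tRNA precursors (chr1:184051651-184123978, plus strand). It had 228 counts (23.7 CPM) in control and 77 counts (11.6 CPM) in knockdown SW480 cells, and 369 counts (67.7 CPM) and 297 counts (22.1 CPM) in SW620 cells. Both control libraries lay above both knockdown libraries, although control SW480 exceeded knockdown SW620 only narrowly. The fold changes were -1.02 ± 0.19 (counting SE) in SW480 and -1.61 ± 0.11 in SW620, the deepest fall of the group in SW480. Reads could also be shared with 3 annotated TSEN15 pseudogenes. CNOT6, a deadenylase of the CCR4-NOT complex that shortens poly(A) tails (chr5:180494412-180578405, plus strand), had 805 counts (83.8 CPM) and 399 counts (60.2 CPM) in control and knockdown SW480 cells. In SW620 it had 542 counts (99.4 CPM) and 725 counts (53.9 CPM), and the fold changes were -0.48 ± 0.09 and -0.88 ± 0.08. NAA50, an acetyltransferase of protein N termini that is also needed for sister chromatid cohesion (chr3:113716460-113746300, minus strand), had 2424 counts (252 CPM) and 1254 counts (189 CPM) in SW480. In SW620 it had 1656 counts (304 CPM) and 2037 counts (151 CPM). Its fold change of -0.42 ± 0.05 was the smallest of the group in SW480, while that of -1.003 ± 0.05 in SW620 left 49.9% of its control level. RWDD1, which binds and stabilizes the DRG2 GTPase (chr6:116571367-116597675, plus strand), had 335 counts (34.9 CPM) and 123 counts (18.6 CPM) in SW480. In SW620 it had 307 counts (56.3 CPM) and 241 counts (17.9 CPM). Its knockdown libraries stood at nearly the same level in both lines, and its fall of -1.64 ± 0.12 in SW620 was the deepest of the group there, against -0.90 ± 0.15 in SW480.

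Among the signaling genes, ICK is a kinase that limits the length of cilia (chr6:53001279-53061802, minus strand). It had 293 counts (30.5 CPM) and 122 counts (18.4 CPM) in control and knockdown SW480 cells, and 489 counts (89.7 CPM) and 474 counts (35.2 CPM) in SW620. ICK was the only one of the 10 genes whose libraries overlapped, since knockdown SW620 lay above control SW480. The other 9 genes had both control libraries above both knockdown libraries, as did 5.93% of all tested genes. Within each line ICK was lower in knockdown cells, changing by -0.72 ± 0.16 (SW480) and -1.34 ± 0.09 (SW620). MAP4K5, a kinase upstream of JNK signaling (chr14:50418501-50561126, minus strand), had 412 counts (42.9 CPM) and 202 counts (30.5 CPM) in SW480 and 395 counts (72.4 CPM) and 501 counts (37.2 CPM) in SW620. Its fold changes were -0.49 ± 0.12 and -0.96 ± 0.10. SIKE1, a suppressor of the kinases IKBKE and TBK1 and a member of the STRIPAK phosphatase complex (chr1:114769479-114780685, minus strand), had 521 counts (54.2 CPM) and 210 counts (31.7 CPM) in SW480. In SW620 it had 275 counts (50.4 CPM) and 417 counts (31.0 CPM). The 4 libraries of SIKE1 formed a pair of control values and a pair of knockdown values with little difference between the lines, and the fold changes were -0.77 ± 0.12 and -0.70 ± 0.11. ZFP91, a zinc finger ubiquitin ligase of the non-canonical NF-kappaB pathway (chr11:58579111-58621042, plus strand), had 801 counts (83.4 CPM) and 384 counts (57.9 CPM) in SW480 and 435 counts (79.8 CPM) and 626 counts (46.5 CPM) in SW620. Its fold changes were -0.52 ± 0.09 and -0.77 ± 0.09.

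Among the genes of metabolism, CERS6 is a ceramide synthase of the endoplasmic reticulum (chr2:168455862-168775137, plus strand). It had 1306 counts (136 CPM) and 521 counts (78.6 CPM) in control and knockdown SW480 cells, and 603 counts (111 CPM) and 643 counts (47.8 CPM) in SW620. The fold changes were -0.79 ± 0.07 and -1.21 ± 0.08, and 57.8% and 43.2% of the control level was left. ISOC1, a member of the isochorismatase family (chr5:129094751-129114028, plus strand), had 525 counts (54.7 CPM) and 189 counts (28.5 CPM) in SW480 and 259 counts (47.5 CPM) and 236 counts (17.5 CPM) in SW620. Both control libraries stood well above both knockdown libraries, with fold changes of -0.93 ± 0.12 and -1.42 ± 0.13.

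**Figure D1:**
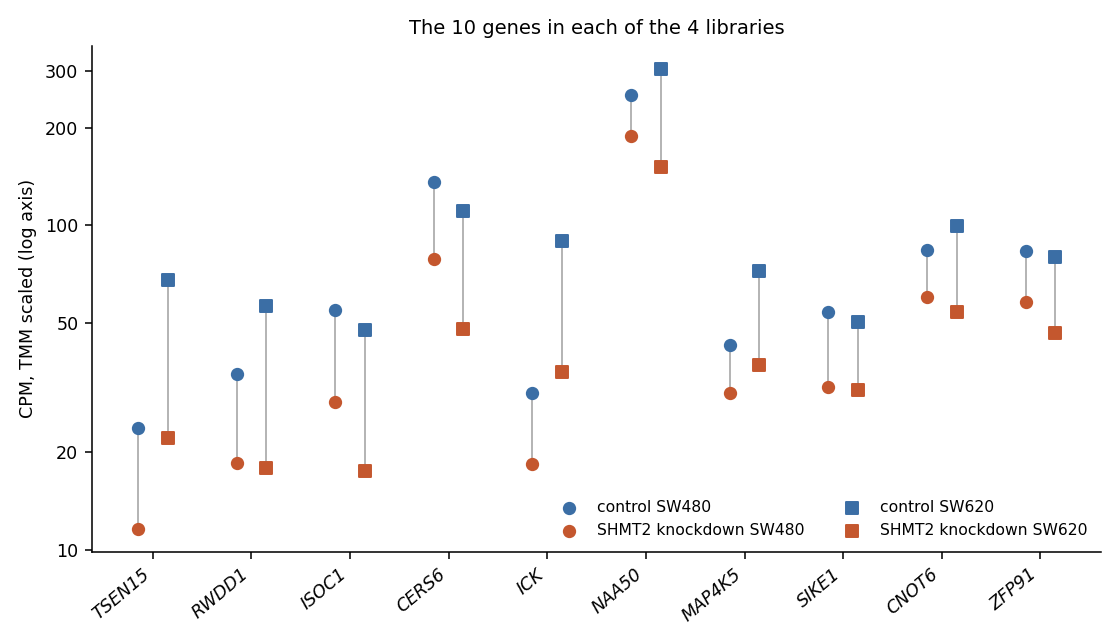
TMM-scaled CPM on a log axis for each of the 10 genes, with circles for SW480, squares for SW620, blue for control and red for SHMT2 knockdown, 1 library per point. The line that joins a pair goes down from control to knockdown in both lines for all 10 genes, from 23.7 to 11.6 CPM for TSEN15 in SW480 and from 304 to 151 CPM for NAA50 in SW620.

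The fall was deeper in SW620 than in SW480 for 9 of the 10 genes. The difference between the 2 log2 falls was largest for RWDD1, at 0.74 (95% counting interval 0.35 to 1.12). For SIKE1 the fall was 0.07 deeper in SW480, and its counting interval, -0.39 to 0.24, contained 0. These intervals hold counting error alone, and with 1 library per line and condition there is no test of the difference. Of the 154 other genes called lower, 63 (40.9%) fell more in SW620. Those genes were picked by the fit over both lines and the 10 by their falls, so the shares are not like for like. SHMT2 also had less of its level left in SW620 than in SW480, as given above. Its fall was 0.69 deeper there, and the part of that in the other genes' falls was not tested.

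**Figure D2:**
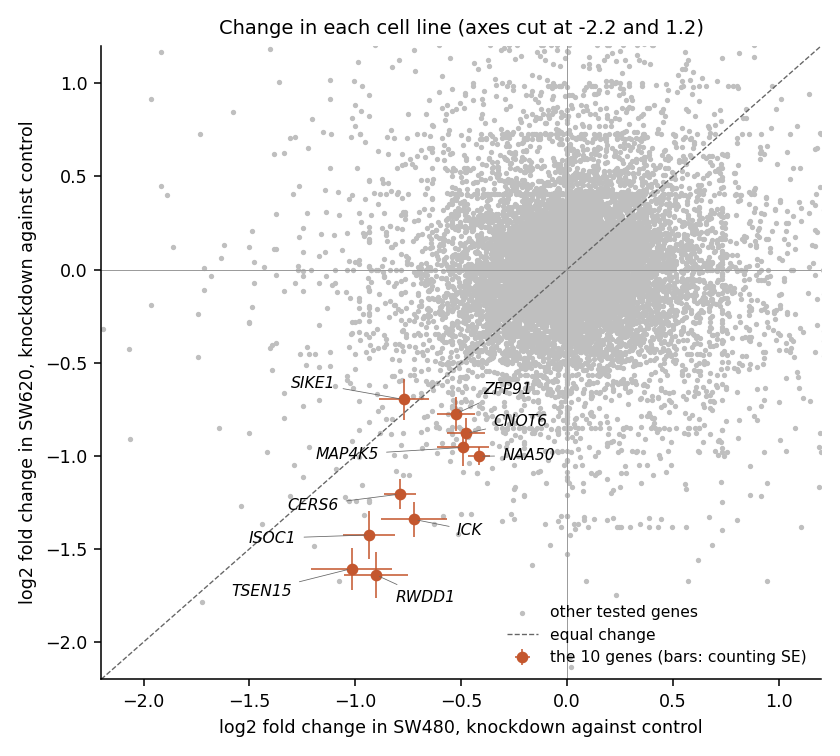
Log2 fold change in SW480 (horizontal) against SW620 (vertical), knockdown against control, for the 10 genes in red with counting standard errors and for the other tested genes in grey. Of the 10 genes, 9 lie below the dashed line of equal change, and SIKE1, at -0.77 and -0.70, lies just above it.

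The matches to the hairpin were then counted over all genes with an annotated 3′ UTR. GGGTTAT, the complement of guide bases 2 to 8, was in the longest 3′ UTR of 7 of the 10 genes (70.0%; RWDD1, ICK, NAA50, MAP4K5, SIKE1, CNOT6 and ZFP91) and of 905 of 12735 tested genes (7.11%). The complement of guide bases 1 to 7 was in 0 of the 10, against 5.60% of tested genes. The corresponding site of the passenger strand, GTACTTG, was in 1 of the 10, CERS6, against 10.2%. In coding sequences 0 of the 10 held GGGTTAT, against 3.62% of tested genes.

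After these counts had been seen, every 7-base window of the guide and of the passenger strand was searched, 30 in all. The window of guide bases 4 to 10, GAGGGTT, was the most frequent in the 10 genes, at 9 of 10 in the longest 3′ UTR, against 10.1% of the other tested genes. With all annotated 3′ UTRs it was in 10 of 10, against 11.7% of the others. The same window was also highest among the other tested genes. Their calls come from the knockdown contrast and the 4 libraries that were used in choosing the group. The window was picked from the 30 by these counts, so the shares below are not independent of that choice. Of 1283 other genes with GAGGGTT in the longest 3′ UTR, 66 were called lower in knockdown cells (5.14%), against 79 of 11442 without it (0.69%). Called higher were 3 genes with it (0.23%) and 64 without (0.56%), where 0.492% of all tested genes were called higher. For the neighboring windows of guide bases 3 to 9 and 2 to 8, 3.72% and 2.45% of genes with a site were called lower. For the remaining 27 windows this share was between 0.42% and 1.88%, with a median of 1.11%.

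**Figure D3:**
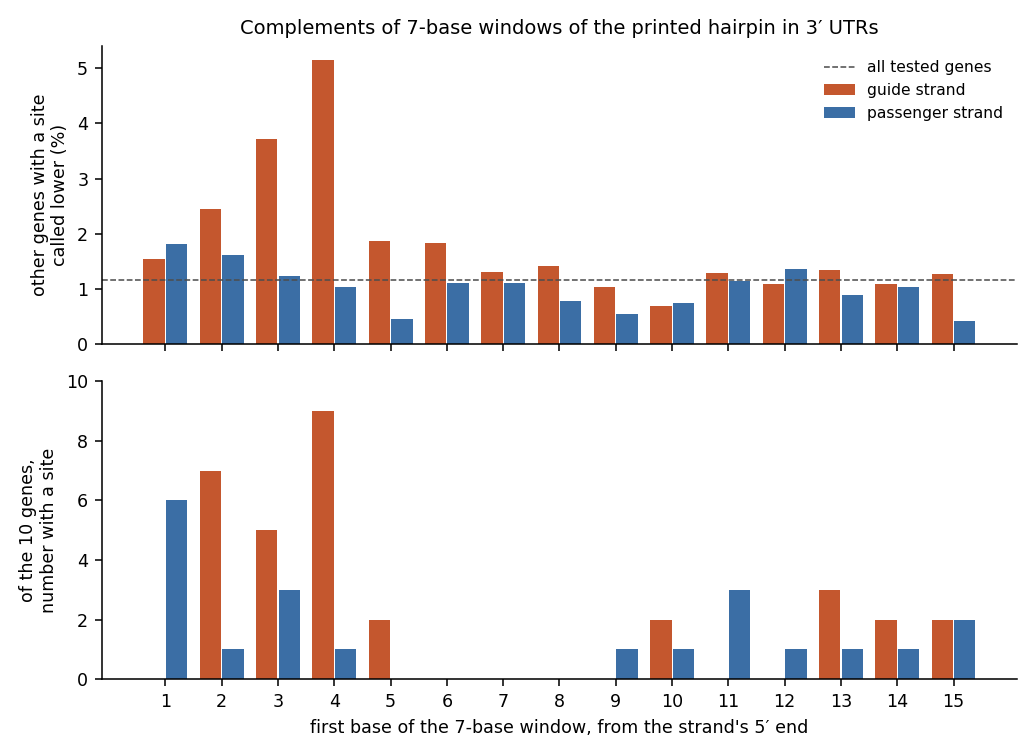
The upper panel shows, for each 7-base window of the guide (red) and passenger (blue) strand, the percentage of genes outside the group with its complement in the longest 3′ UTR that were called lower, with all tested genes (1.17%) as the dashed line. The lower panel shows how many of the 10 genes hold each site, and the guide window that begins at base 4 is highest in both, at 5.14% and 9 genes.

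Read the other way, 66 of 145 genes called lower outside the group (45.5%) held GAGGGTT, against 9.70% of the genes not called and 3 of 67 genes called higher (4.48%). The share of genes called lower was larger with more sites and with matches extended to guide base 3. It was 4.55% of 1143 genes with 1 site and 14 of 140 genes with 2 or more. It was 17 of 229 genes (7.42%) whose match covered guide bases 3 to 10, against 49 of 1054 genes (4.65%) where it did not reach base 3. Where the match extended over bases 2 to 10, as in RWDD1, ICK, NAA50 and ZFP91, it was 5 of 65 genes (7.69%). The differences between these shares were not tested. These 65 genes had a median change of -0.0449 in the fit, against -0.0450 for all genes with the site. Genes with 2 or more sites also had longer 3′ UTRs, with a median of 4861.5 bases against 3186 bases with 1 site. The median change of genes with a site was small, -0.04 in SW480 and -0.06 in SW620, so most genes with GAGGGTT did not fall as the 10 genes did. Of 12513 genes that were not called in either direction, 1214 carried it.

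Long 3′ UTRs hold more sites by length alone, so the shares were taken within ranges of length. At 4000 bases or more, GAGGGTT was in 5 of 5 members and 26.9% of other genes, and the complement of guide bases 2 to 8 was in 4 of 5 members and 19.6%. At 2000 to 4000 bases each site was in 2 of 2 members, against 13.4% and 9.61%, and at 1000 to 2000 bases they were in 2 and 1 of 3 members, against 7.18% and 4.49%. For 3′ UTRs of 1000 to 2000 bases, 7.56% of genes with GAGGGTT and 0.81% of those without were called lower. For 2000 to 4000 bases the shares were 5.74% and 0.55%, and for 4000 bases or more 3.81% and 0.59%. Shorter 3′ UTRs rarely held the site. Of 68 genes with it at 500 to 1000 bases 3 were called lower (4.41%, against 0.48% without), and of 25 genes with it below 500 bases 0 were called lower, against 1.0% of 2000 genes without. The share was thus higher with the site in every range but the shortest. Among genes that fell by 0.5 or more in both lines, outside the group, 39 of 115 (33.9%) held GAGGGTT, and among genes that rose by 0.5 or more in both lines 9 of 118 (7.63%) did. Whether the sites had a part in the fall of the 10 genes was not tested.

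Of the 10 genes with an annotated 3′ UTR, other than SHMT2, that ranked above every member, 4 carried GAGGGTT in the longest one. The other 6 did not, and 10.1% of tested genes outside the group carried it. UHRF1, the maintenance factor of DNA methylation, had 1 such site and 0 sites of guide bases 2 to 8, CCND1 had 2 and 1, CBFB had 1 and 0, and NEURL1 had 1 of each. ANLN, INSIG1, FAM46B, ABCB4, TEX14 and USP50 had 0 of either. Some of these genes had few counts, such as NEURL1 with 3 and 2 in control and knockdown SW620. ABCB4 had 3 and 0 in SW480. Of further genes that the study checked by quantitative PCR, SCD had 1 GAGGGTT and changed by -0.98 (SW480) and -0.86 (SW620). HMGA2 also had 1, and it rose by 1.01 and 0.91.

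The known partners of each gene were examined next, to see whether complexes and pathways fell along with the member. Over 11 lists, 119 of 126 listed partners were tested, and 0 were called lower or higher by edgeR, against 1.17% and 0.492% of all tested genes. At an unadjusted p under 0.05, 4 were lower and 8 were higher, where 4.91% and 4.15% of all tested genes were, and the DESeq2 Wald test also called 0. The median change of the partners was 0.01, close to that of all tested genes, 0.01.

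TSEN34 and TSEN54, which encode subunits of the tRNA splicing endonuclease, changed by -0.30 and -0.04 on the log2 scale, and 0 of the 11 genes of tRNA splicing passed. For CNOT6, 0 of 18 deadenylase genes passed, and they ranged from -0.17 (BTG1) to 0.23 (CNOT8). CNOT6L, the closest relative of CNOT6 and its alternative in the complex, changed by -0.15. For NAA50, 0 of 9 acetyltransferase genes passed, and NAA10 and NAA15, the subunits that bind NAA50, changed by -0.00 and -0.03. DRG2, the partner of RWDD1, changed by -0.21 (adjusted p = 0.75, edgeR).

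For MAP4K5, 0 of 13 genes from the MAP4 kinases to JNK passed. For SIKE1, 0 of 15 STRIPAK genes passed, which ranged from -0.22 to 0.25, and 0 of 7 genes of TBK1 and IKBKE signaling, which ranged from -0.15 to 0.27. For ZFP91, 0 of 8 genes of non-canonical NF-kappaB signaling passed, and its substrate MAP3K14 changed by -0.06. For ICK, 0 of 8 genes of cilium length kinases and kinesin-2 passed. For CERS6, 0 of 23 tested genes of ceramide and sphingolipid metabolism passed. SPHK1, a sphingosine kinase, set the low end of that range at -1.22 (adjusted p = 0.18, edgeR), with 81 and 17 counts in SW480 but 5 and 13 in SW620. ISOC2, the relative of ISOC1, changed by -0.11.

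**Figure D4:**
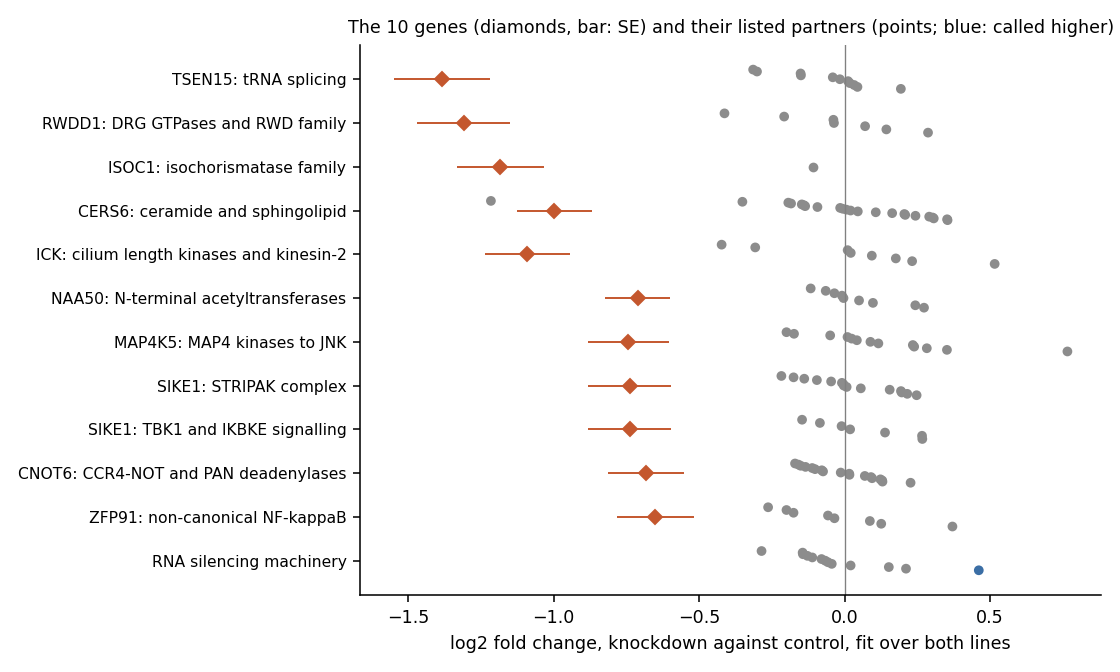
Log2 fold change of knockdown against control in the fit over both lines, with each of the 10 genes as a red diamond with its standard error and its listed partners as points (grey, not called). Each diamond lies left of its partners except in the ceramide list, where SPHK1 (-1.22) lies further left than CERS6 (-0.997), and DICER1 at 0.46, in the silencing list, is the one point called higher (blue).

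Among 13 genes of the RNA silencing machinery, 1 was called. DICER1 was higher in knockdown cells by 0.46 ± 0.12 (SE; adjusted p = 0.015, edgeR), with 90.4 and 109 CPM in control and knockdown SW480 and 101 and 159 CPM in SW620. The 4 Argonaute genes ranged from -0.29 (AGO3) to 0.21 (AGO1) and did not pass. The call of DICER1 was lost with DESeq2, with no filter, with the stricter filter, in thinned libraries and without the cell line.

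Relatives that could share reads with a member were checked as well. Of 16 tested paralogs, 0 were called by edgeR, and they ranged from -0.42 (MAK) to 0.77 (MAP4K1). Of 23 tested neighbors on the chromosome, 3 of them overlapping a member, 1 was called. CERS6-AS1, which overlaps CERS6 on the opposite strand, was lower, with a log2 fold change of -0.92 ± 0.14 (SE; adjusted p = 4.06e-08, edgeR). Its values were 69.1 and 41.2 CPM in control and knockdown SW480 and 50.6 and 23.4 CPM in SW620, which ran parallel to those of CERS6. Use of strand in counting is not given in the sources used here, so reads of the gene and its antisense partner cannot be told apart. FBXO9, which overlaps ICK, and ATL1, which overlaps MAP4K5, changed by 0.10 and 0.05 and were not called. The median over the neighbors was 0.01.

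The difference between the cell lines had no part in the choice of the genes and was tested in the same fit. TSEN15 and ICK were higher in SW620 than in SW480, by 1.27 ± 0.17 (SE; adjusted p = 1.57e-13) and 1.28 ± 0.15 (adjusted p = 2.61e-17), both by edgeR. MAP4K5 was higher in SW620 by 0.53 ± 0.14 (adjusted p = 0.00033, edgeR). RWDD1 was higher in SW620 by 0.37 ± 0.16 (adjusted p = 0.036, edgeR), and this call was lost in each alternative fit but one. CERS6 and ISOC1 were lower in SW620, with differences of -0.50 ± 0.13 (adjusted p = 0.00019) and -0.43 ± 0.15 (adjusted p = 0.0073), again by edgeR. In all, 4 of the 10 were higher in SW620 and 2 were higher in SW480, where 32.3% and 31.3% of all tested genes were called. These shares are near the background. DESeq2 called 3 of the 10 and a model without the treatment called 2.

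NAA50, SIKE1, CNOT6 and ZFP91 did not pass, with differences of -0.02, -0.07, 0.05 and -0.19 and adjusted p of 0.86, 0.69, 0.77 and 0.21 from edgeR. Within the control libraries alone, NAA50 and CNOT6 were higher in SW620, by 0.27 and 0.25. Within the knockdown libraries they were lower there, with differences of -0.32 and -0.16. RWDD1 differed by 0.69 in control cells and by -0.05 in knockdown cells, where its lines were nearly level. Each of these values rests on 1 library per line, with no test.

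**Figure D5:**
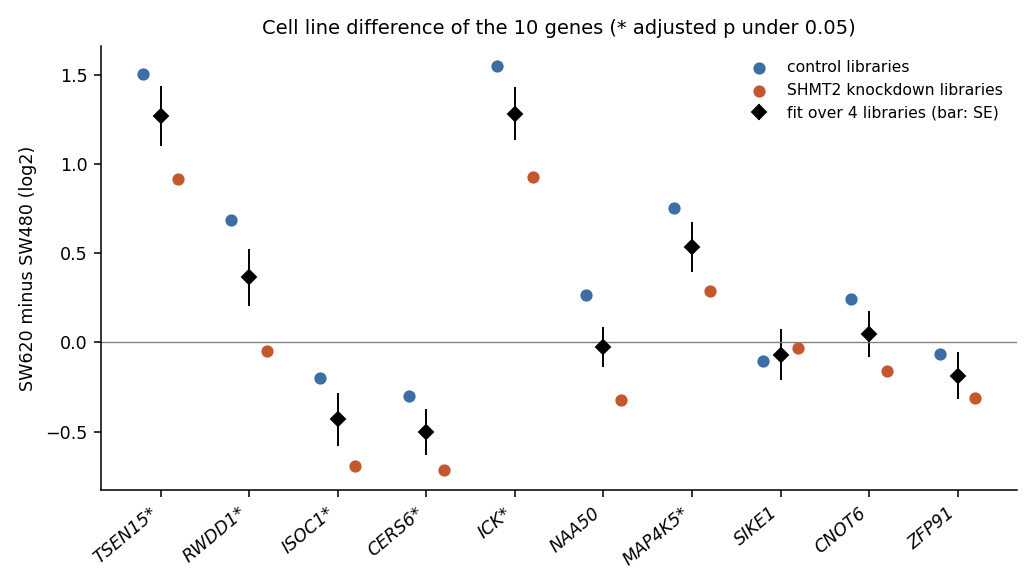
SW620 minus SW480 on the log2 scale for each of the 10 genes, with black diamonds for the fit over 4 libraries (bars, SE), blue for the control and red for the SHMT2 knockdown libraries. TSEN15, at 1.502 and 0.91, and ICK, at 1.55 and 0.93, lie far above 0 in both conditions, while RWDD1, NAA50 and CNOT6 have blue points above 0 and red points below it.

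For each member, the gene with the most similar profile was sought among 8563 candidates, by the distance between log2 CPM values centred on their mean over the 4 libraries. CBFB lay nearest to both TSEN15 and ICK, at distances of 0.32 and 0.28. PRPF8 lay nearest to NAA50 and CNOT6 (0.11 and 0.10), and CERS6-AS1 to CERS6 and ISOC1 (0.15 and 0.32). RWDD1 had RACGAP1 (0.51), MAP4K5 had AK3 (0.24), SIKE1 had SRP19 (0.11) and ZFP91 had DDB2 (0.06). The 4 points share cell lines and conditions, so likeness over them describes these libraries only. In their longest 3′ UTRs CBFB, RACGAP1 and AK3 each had 1 GAGGGTT, and PRPF8, SRP19 and DDB2 had 0.

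Beyond the sites, the transcripts had long 3′ UTRs of low GC content. The median length of the longest 3′ UTR was 4038 bases in the 10 genes and 1610 bases in all tested genes, and 8 of the 10 were above the latter. CERS6 (5475 bases), NAA50 (5300 bases) and SIKE1 (4792 bases) had the longest, and ISOC1 (1027 bases) the shortest. The GC content of these 3′ UTRs had a median of 36.1%, against 44.2% in all tested genes, and only that of TSEN15 (45.7%) was above it. The coding sequences had a median GC content of 47.5%, against 52.8%.

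RefSeq promoters, from 250 bases before to 50 after the start on GRCh38.p14, were found for 8 of the 10 genes, all but TSEN15 and ICK. Of 13 motifs searched on both strands, 3 occurred. The NFY motif CCAAT was in 3 of the 8 promoters (CERS6, CNOT6 and ZFP91), against 36.5% of all promoters. The SP1 motif GGGGCGGGG was in 3 (NAA50, CNOT6 and ZFP91), against 28.01%, and the NRF1 motif in 3 (RWDD1, ISOC1 and SIKE1), against 11.4%. No motif was shared by a majority of the promoters, and that of MAP4K5 held 0 of them.

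Library totals ranged from 5530129 to 13774288 counts, and the members had between 77 and 2424 counts each. Cell type markers were taken as CPM of the raw library total, without TMM. The epithelial genes EPCAM, CDH1, KRT8 and KRT18 were above 10 CPM in each library, and KRT20, CEACAM5 and LGALS4 were near 0. CDX2 had between 9.76 and 21.5 CPM, and VIL1 differed between the lines, at 0.209 and 0.155 CPM in SW480 and 367 and 371 CPM in SW620. Together 9 epithelial markers summed to between 4388 and 9690 CPM. For 9 markers of blood, endothelium, fibroblast and liver the sum was between 11.5 and 33.6 CPM, with CD3E at 0 in every library.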

How the data were processed

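RNA of 4 cell line libraries was sequenced. The file deposited by the authors gives raw, unscaled counts of reads for 26364 symbols. Per the labels, Illumina TruSeq kits were used. The submitters' processing notes name Bowtie 0.12.2 and hg18 without stating their roles, while the counter, its annotation and its strand setting are not given in the sources used here. The study's methods section describes a microarray, while other parts of its text speak of RNA-seq. The deposited values are whole counts whose totals differ between libraries. Spreadsheet dates stood in place of symbols in 28 rows, which were kept.

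The 14024 genes that reached 10 counts in 2 or more libraries were fitted in R 4.3.3 with edgeR 4.0.16 (TMM, quasi-likelihood, terms for cell line and treatment, 1 residual degree of freedom, two-sided, Benjamini-Hochberg over all tested genes, called at an adjusted p under 0.05). The cell line pairs the libraries, and deviations from the means of their conditions correlated at 0.961 across genes, which are not independent replicates. Alternatives were no cell line term, no filter, at least 50 counts, DESeq2 1.42.0 size factors, its Wald test, thinning to the smallest total and a prior count of 0.5.

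The hairpin target was read from the SHMT2 coding sequence of GENCODE 29 as the 21 bases around its single GGGTTAT. Symbols were matched to GENCODE 29 and RefSeq, and 12736 tested genes had both a 3′ UTR and a coding sequence. Named genes are the members, SHMT2, called genes of each list (otherwise ranges), and called paralogs and neighbors. Also named are the nearest profile of each member, genes ranked among the members and genes that the study checked by quantitative PCR. The members and lists were chosen with earlier results of these data known. Genes named for an end of a range, or as the direct partner of a member, were chosen after their values were seen.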

Additional observations from a re-analysis of the deposited data

How the results depend on the processing

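The number of all genes called lower and higher was 164 and 69. It was 21 and 5 with the DESeq2 Wald test, 54 and 15 with at least 50 counts, 49 and 12 in thinned libraries, and 0 and 0 with no replicate block, that is, with the cell line left out. With the cell line left out, 0 members were therefore called. Most members were not called with the Wald test, where at least 18 of the 21 genes called lower lay outside the group. Partners and paralogs stayed at 0 calls under every alternative fit. The single call in the silencing machinery, DICER1, became 0 with the Wald test, the stricter filter, thinning, no filter and no replicate block. The single call among the neighbors, CERS6-AS1, became 0 with the Wald test and with no replicate block. Of the 6 members called between the lines, 3 were called with the Wald test and 2 with the treatment left out, and the line difference of RWDD1 was reversed in the knockdown libraries alone (-0.0498). The share of genes called lower with GAGGGTT, 45.5%, was 55.6% with the Wald test (18 genes with a 3′ UTR), 58.5% with at least 50 counts and 61.1% in thinned libraries. It could not be had without the cell line, where 0 genes were called. The median fall of the members, -0.87 in the fit, ranged from -1.11 to -0.75 with a line left out, and under all other alternatives it stayed within that range. With fewer counts in control SW620 than in any other library, depth limits that library most. The causes of these shifts were not tested.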

Other observations

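The 21 bases of the hairpin target were also compared with the longest transcript of each gene. The best ungapped alignment had 7 to 9 mismatches in the 10 genes, with a median of 8, and the median over 13641 tested genes was also 8. The longest contiguous match anywhere in these transcripts was 7 to 9 bases in the members, with a median of 8.5 against 7 in all tested genes. A match of at least 9 bases was found in 5 of the 10 members (RWDD1, ICK, NAA50, CNOT6 and ZFP91) and in 8.52% of tested genes.

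In coding sequences GAGGGTT was in 0 of the 10 members. Of 11442 other genes without it in the longest 3′ UTR, 529 had it in the coding sequence. Of these 529 genes 11 were called lower (2.08%), against 79 of the 11442 genes (0.69%), which include them. The site was more frequent in well-expressed genes that were called lower, at 64 of 132 with a mean log2 CPM of at least 4 (48.5%), than in the 13 less expressed ones, where 2 held it (15.4%). Genes that fell by 0.5 or more held the site at 17.2% of 686 genes in SW480 and 19.5% of 701 genes in SW620, where each line is taken alone and the member genes are left out.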
